A study of Mus musculus with 12 samples.

Results

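Cells of the mouse insulinoma line MIN6 that had been given amino acids and Rap for 3 h were compared with cells of the same line labelled as control. The comparison rests on 6 of the 12 RNA-seq libraries of the study, 3 with Rap (labelled MIN6, re+AA+Rap 3h) and 3 controls (labelled MIN6, ctrl), and on all 16844 genes with enough counts among the 49315 in the files. All groups are labelled wild type, pancreatic beta cell line, and the labels name no transgene or deletion. The other libraries are 3 from cells kept without amino acids for 16 h (starved) and 3 from cells whose amino acids were returned for 3 h with no Rap (re-added). They entered the same fit and are given beside the comparison where they bear on it. The labels do not spell out Rap or give its dose, do not say how long the Rap group had been without amino acids before the 3 h, and do not describe the amino acid free medium. The growth medium of the line held 15% serum and 2 mM glutamine, per the labels' protocols. Whether the replicates of a group were grown as separate cultures is not stated either, and the p-values therefore reflect differences among libraries that may be only technical. MIN6 is a single line from a tumour of a mouse in which a viral large T antigen was driven by the insulin promoter, so its growth control is not that of a normal beta cell.

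Amino acids reach the cell's growth machinery through mTORC1, a kinase complex that Rag GTPases recruit to the lysosome surface when amino acids are plentiful. Active mTORC1 raises ribosome production and sterol, fatty acid and nucleotide synthesis, and it raises the output of the transcription factors HIF1, SREBP and ATF4. It also keeps TFEB, which drives lysosome and autophagy genes, out of the nucleus. In beta cells the same pathway bears on cell mass, on insulin production and on how far glucose is used through mitochondria. The comparison with control cells addresses how far the transcripts of these programmes differ from those of cells that were never deprived, when amino acids come back in the presence of Rap.

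Glycolysis, HIF1 target, sterol and fatty acid synthesis and cell cycle transcripts were lower with Rap than in control cells. The control mean of Ldha, the lactate dehydrogenase gene, was 5.61 times that of the Rap libraries. Transcripts for folding and quality control in the endoplasmic reticulum (ER) were higher, led by Derl3, as were those of Irs2, Igf1r, the NR4A factors and the granule proteins Chgb, Scg3 and Pam. Ins1 and Pdx1 fell modestly, and Mafa, also lower, did not pass the test here but passed under 5 of 22 alternative settings. In a further fit with other-cell markers as a covariate, described below, 4 of 31 ER genes rose. Pdx1 but not Ins1 passed there. In all, 8927 of the 16844 genes (53%) passed edgeR's quasi-likelihood test at an adjusted p of 0.05, 4672 of them higher (27.7%) and 4255 lower (25.3%). The 3 Rap and 3 control libraries did not overlap at 10271 genes (61%). A call by itself therefore says little about a gene, and each gene group below is read against these shares. Differences of at least 2-fold were found at 1012 genes that rose (6.01%) and 2303 that fell (13.7%).

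Markers of 5 other cell types separated the same groups. The summed level of 9 lung epithelium markers was 1619.6 to 1941 CPM (counts scaled to the library total) in the controls and 43.1 to 51.8 CPM with Rap. The 12 leukocyte markers summed to 1567 to 1863 CPM against 41.1 to 45.99 CPM, the 10 endothelium markers to 281 to 333 against 53.9 to 54.7 CPM, the 10 fibroblast markers to 253 to 299 against 12.2 to 14.3 CPM, and the 6 erythroid markers to 154 to 189.7 against 4.98 to 6.5998 CPM. Every tested member of these 5 lists fell: 9 of 9, 12 of 12, 10 of 10, 9 of 9 and 5 of 5. All 3 controls were thus high and all 3 Rap libraries low, so no subset of the 6 libraries is matched for these transcripts. Among the starved and re-added libraries, starved 1 was near the controls, starved 3 and re-added 1 lay between, and the others were low. Of the other 4 marker lists, the 6 neuron and glia markers were higher with Rap, at 410.3 to 442 CPM against 282 to 351 CPM in the controls, and 3 of 5 tested rose. The sums of the 6 duct markers (501 to 571 CPM in the controls and 523 to 544 CPM with Rap) and of the 7 markers of other islet endocrine cells (265 to 312 and 249.9 to 268 CPM) overlapped, although 3 of 5 tested duct markers fell and 1 rose, and no acinar marker had enough counts to be tested. In bulk RNA, fewer cells of a type and less RNA per cell cannot be told apart. The labels name 1 cell line only, and where the transcripts of other cell types came from was not tested, so their sums are levels in a library and not a count of cells in a culture. Beta-cell markers were present in every library, and none of the 8 was at 0. They summed to 40649 to 54976 CPM in the controls and 35711 to 38955 CPM with Rap, so the sums did not overlap. Of the 8, 5 fell and 0 rose, with a median log2 fold change of -0.45.

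**Figure D1:**
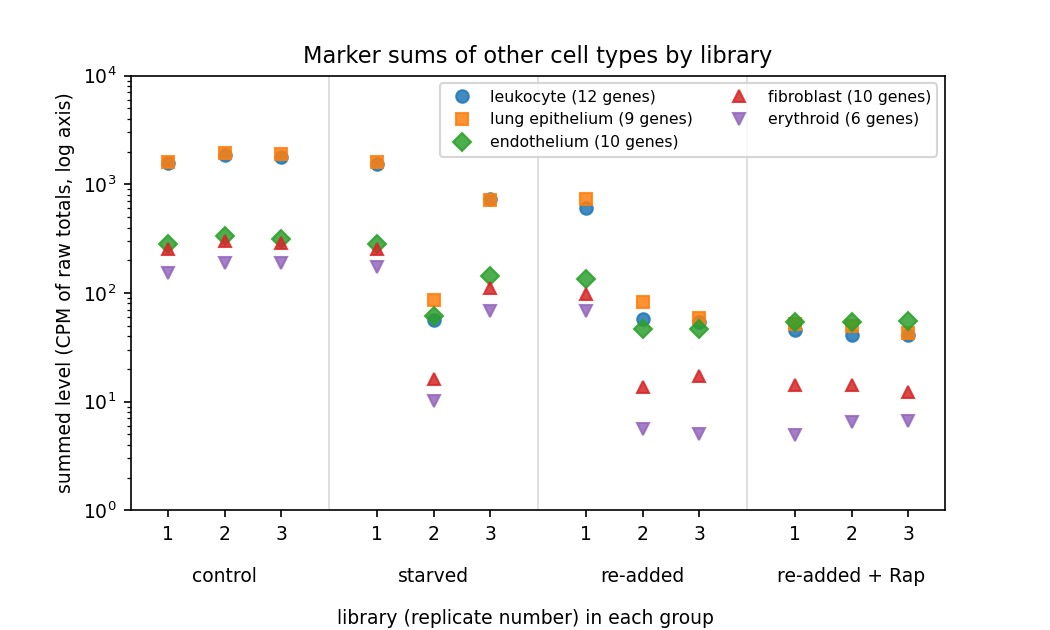
Summed level of marker genes of 5 other cell types in each of the 12 libraries, in CPM of raw totals on a log axis. All 3 control libraries are high for every list and all 3 Rap libraries low. Library starved 1 is near the control levels, starved 3 and re-added 1 lie between, and starved 2, re-added 2 and re-added 3 are low.

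The spread within the starved and re-added groups gives a measure of how each gene moves with these markers. The fibroblast, leukocyte and endothelium markers, 32 genes, were summed in each library, and the within-group slope of a gene on that sum was multiplied by the control minus Rap difference in the sum. Where the product passed 10% of the gene's control mean, the gene is called marker-linked below. A gene whose level fell as the markers rose has a negative product and is not marked, such as Bckdha (-25.1%), Bambi (-19.0%) and Chgb (-14.3%). A gene that is not marker-linked may therefore still have moved with the markers, in the opposite direction. Marker-linked genes were 5715 of the 16844 genes, 2098 of the 2303 that fell at least 2-fold and 336 of the 1012 that rose at least 2-fold. The counts of each gene list below are therefore given in 2 further fits as well: one on the 11165 genes that remained when the marker-linked genes were left out before testing, and one on all genes with the marker sum as a covariate. The first called 5828 genes (52.2%), 2970 higher (26.6%) and 2858 lower (25.6%). Leaving genes out also changed the scaling of the libraries. The genes that are not marker-linked had a median log2 fold change of 0.15 in the fit of all genes, and the median in the first fit was 0.02. Estimates in the first fit were thus lower, also for lists without a marker-linked member, where more falls and fewer rises reflect this scaling. The second called 1086 (6.45%), 431 higher (2.56%) and 655 lower (3.89%), and 1040 of these were called in the same direction without the covariate and 7 in the opposite one. Its estimate of the Rap difference borrows the slope from the starved and re-added libraries, since the marker sum and the 2 compared groups coincide. A gene that does not pass with the covariate need not have a smaller estimate there. The median log2 fold change of the mitochondrial genome list was 0.81 without the covariate and 0.93 with it, yet no member passed with it. That of the ER list did shrink, from 0.40 to 0.12. The part of the other-cell transcripts in any single result was not tested beyond these fits.

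**Figure D2:**
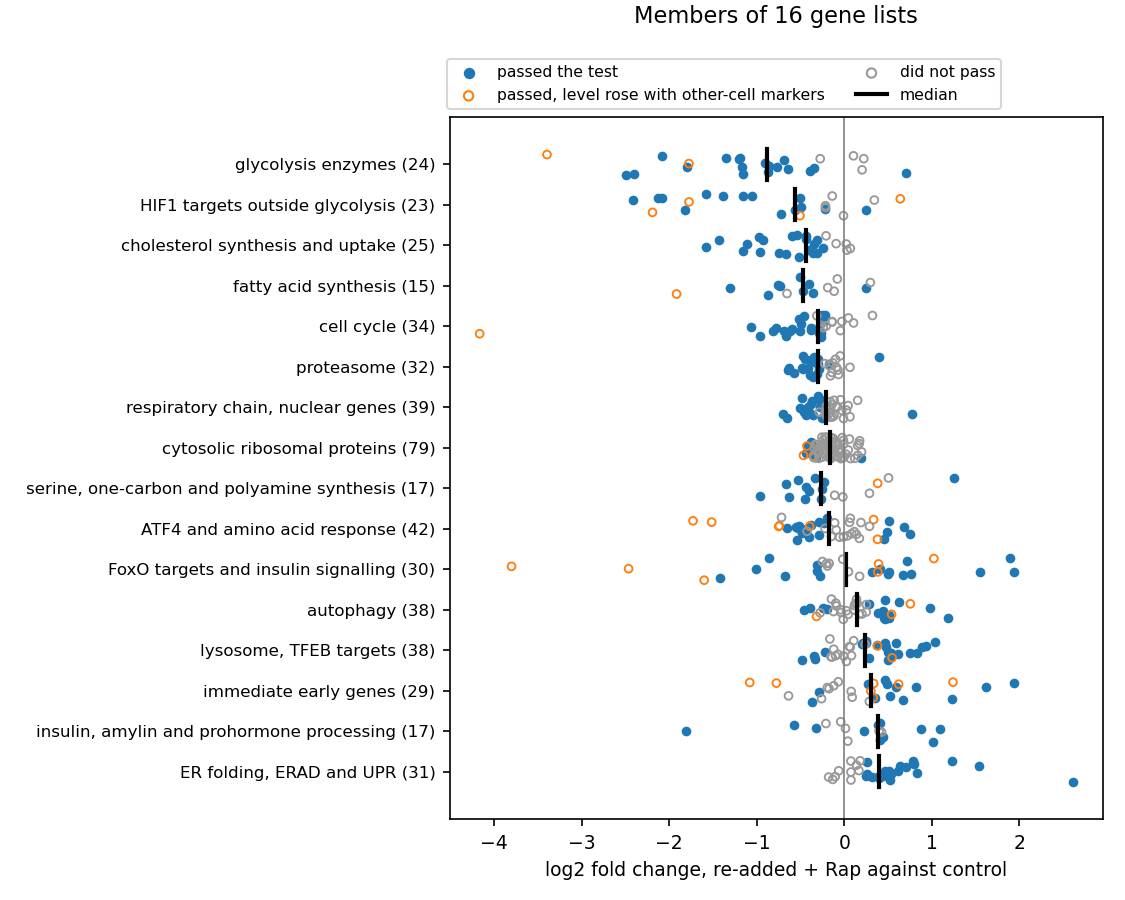
Log2 fold change with Rap against control for every tested member of 16 gene lists (number tested in brackets), 1 point per gene, with the list median as a black bar. Filled points passed the test and are not marker-linked, open orange points passed and are marker-linked, and grey points did not pass. Glycolysis and HIF1 target lists lie furthest to the left and the ER list furthest to the right.

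Glycolysis showed the lowest median of the 16 lists drawn. Of 24 glycolytic enzymes, glucose and lactate transporters, 19 fell and 1 rose, with a median log2 fold change of -0.89 against 0.05 over all genes tested. Leaving out marker-linked genes, 18 of 20 fell, and with the covariate 18 of 24 fell and none rose. Ldha (ENSMUSG00000063229, chromosome 7, 46841475 to 46855627, GRCm38.p6), whose enzyme turns pyruvate into lactate and which normal beta cells keep low, had 2806, 2901 and 2367 CPM in the controls and 465, 474 and 499.7 CPM with Rap. All controls lay far above all Rap libraries, and no other member that is not marker-linked differed by more (log2 fold change -2.49, SE 0.08, adjusted p = 6.9e-09). Slc16a3, the monocarboxylate transporter that exports lactate (chromosome 11, 120948480 to 120960868), had 717, 749.7 and 686 CPM in the controls and 132, 137 and 139 CPM with Rap (log2 fold change -2.40, SE 0.06, adjusted p = 9.8e-10). Pgk1, phosphoglycerate kinase (chromosome X, 106187100 to 106203699), had 2085, 1916 and 1715 CPM in the controls and 537, 554 and 558 CPM with Rap (log2 fold change -1.79, SE 0.08, adjusted p = 9.3e-08). Pgam1, phosphoglycerate mutase, stood at 510.3, 477 and 498 CPM in the controls and 214, 211 and 224 CPM with Rap (log2 fold change -1.20, SE 0.07, adjusted p = 3.9e-07). The groups of these 4 genes did not overlap, and their covariate estimates were -2.49, -2.38, -1.99 and -1.43. Eno2, the neuronal form of enolase, was the 1 member that rose (log2 fold change 0.71, SE 0.14, adjusted p = 0.0015), and it did not pass with the covariate (adjusted p = 0.28).

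HIF1, the hypoxia-inducible factor, drives many of these glycolytic genes. Of 23 of its known targets outside glycolysis, 16 fell and 2 rose, with a median of -0.57. Without the marker-linked genes 16 of 18 fell, and with the covariate 10 of 23 fell and 1 rose. Ak4, a mitochondrial adenylate kinase, had 47.5, 38.99 and 49.2 CPM in the controls and 7.53, 9.38 and 8.51 CPM with Rap, and it fell by 2.42 on the log2 scale (SE 0.12, adjusted p = 1.8e-07). Fam162a, a mitochondrial protein induced by hypoxia, had 159.7, 217 and 158 CPM in the controls and 42.6, 40.3 and 43.05 CPM with Rap (log2 fold change -2.09, SE 0.11, adjusted p = 2.6e-07). Bhlhe40, a transcriptional repressor also placed in the clock, had 60.2, 71.1 and 66.6 CPM in the controls and 19.5, 18.6 and 18.2 CPM with Rap (log2 fold change -1.81, SE 0.09, adjusted p = 1.7e-07). Ddit4, also known as REDD1 and an inhibitor of mTORC1, had 223, 207 and 212 CPM in the controls and 92.3, 89.9 and 105 CPM with Rap (log2 fold change -1.16, SE 0.07, adjusted p = 6.3e-07). All 3 Rap libraries lay below all 3 controls at each of these 4 genes. Ndrg1 and Arnt were the 2 members that rose, Ndrg1 (log2 fold change 0.24, SE 0.07, adjusted p = 0.016) and Arnt, the constitutive partner of HIF1 alpha (log2 fold change 0.64, SE 0.10, adjusted p = 3.3e-04). Epas1, named here because it was the 1 gene the covariate fit put higher, had a log2 fold change of -2.19 without the covariate and 1.304 with it. Arnt is marker-linked, and neither it nor Ndrg1 passed with the covariate (adjusted p = 0.12 and 0.96).

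**Figure D3:**
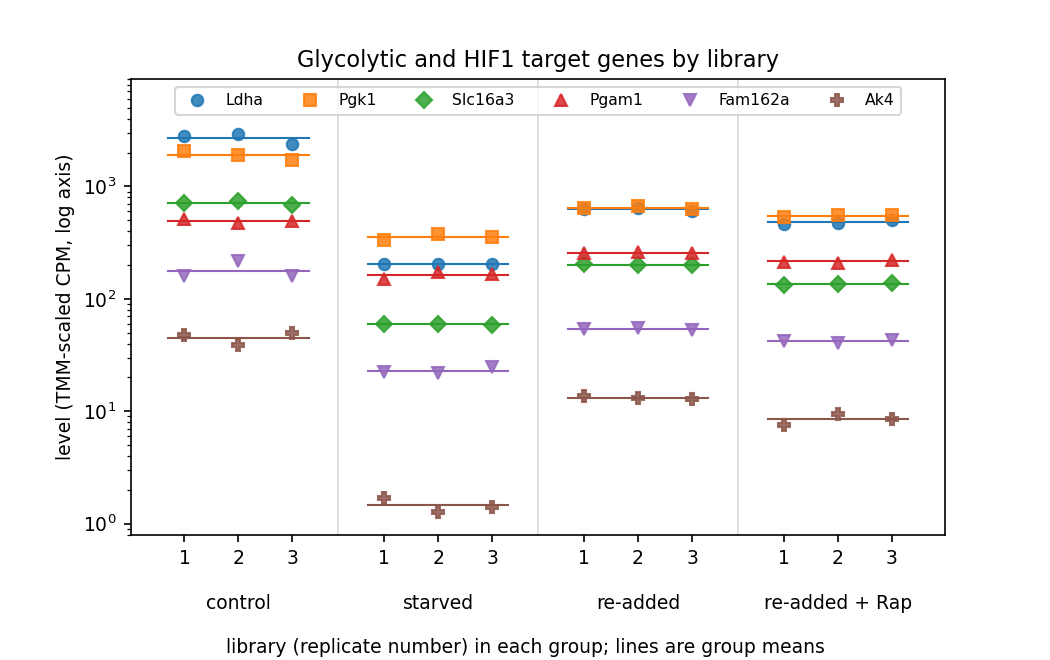
Levels of 6 glycolytic and HIF1 target genes in the 12 libraries, in TMM-scaled CPM on a log axis, with a line at each group mean. At every gene the 3 Rap libraries lie below the 3 controls, and the Rap mean lies between the starved and re-added means.

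The core of the hypoxia response element, ACGTG, was searched on both strands in the 250 bases upstream of each start site in the RefSeq promoter table (GRCm38.p6). It stood upstream of 11 of the 22 glycolysis genes that matched the table, and all 11 had fallen. It was found for 13 of the 18 matched HIF1 targets, of which 10 had fallen. Per window, the share was 41.2% for the glycolysis list and 51.9% for the HIF1 list, against 16.6% of all 32851 windows. Per gene it was 50% and 72.2%, against 23.8% of the 12089 tested genes that matched the table. The core was searched as 1 of 6 motifs, each given with its list. Several of these lists hold known targets of the factors that bind the motif. Shares above those of all windows therefore do not test a motif's part in the changes. A palindromic CACGTG holds the core on both strands and so counts as overlapping matches there. Windows of the 3 leading genes are shown with the matches in capitals, and a match is a description of these letters only. Ldha has 2 windows, and only the one that holds the core is shown.
Ldha, chr7:46845554-46845803, + strand: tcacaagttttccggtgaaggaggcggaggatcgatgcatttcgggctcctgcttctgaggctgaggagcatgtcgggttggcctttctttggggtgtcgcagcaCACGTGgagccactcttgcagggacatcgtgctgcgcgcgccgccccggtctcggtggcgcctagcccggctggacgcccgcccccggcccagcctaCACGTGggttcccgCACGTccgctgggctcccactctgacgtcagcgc
Slc16a3, chr11:120948817-120949066, + strand: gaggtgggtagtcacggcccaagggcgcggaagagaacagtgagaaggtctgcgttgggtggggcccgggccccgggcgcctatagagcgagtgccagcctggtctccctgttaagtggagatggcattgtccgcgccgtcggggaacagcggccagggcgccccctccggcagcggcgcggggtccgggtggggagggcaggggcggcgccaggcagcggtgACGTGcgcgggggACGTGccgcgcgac
Pgk1, chrX:106186850-106187099, + strand: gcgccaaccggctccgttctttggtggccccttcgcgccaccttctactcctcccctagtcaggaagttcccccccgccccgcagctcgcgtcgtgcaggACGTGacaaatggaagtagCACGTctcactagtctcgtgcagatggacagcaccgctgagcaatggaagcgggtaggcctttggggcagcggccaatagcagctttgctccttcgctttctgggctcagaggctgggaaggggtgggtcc

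Sterol synthesis and uptake transcripts were lower with Rap. Of 25 genes on the list, 20 fell and none rose, with a median of -0.44. No member is marker-linked. In the fit without marker-linked genes 21 fell, and with the covariate 13 fell and none rose. Cyp51, lanosterol demethylase, had 206, 202 and 176 CPM in the controls and 98.4, 98.6 and 101 CPM with Rap (log2 fold change -0.97, SE 0.08, adjusted p = 4.8e-06); part of its span overlaps Akap9 on the other strand, and the strand setting of the counting is not given in the sources used here. Insig1, the ER protein that retains SREBP when sterols are plentiful, had 299, 254 and 268 CPM in the controls and 135, 139.9 and 146 CPM with Rap (log2 fold change -0.96, SE 0.08, adjusted p = 4.7e-06). Stard4, a sterol carrier, fell as well (log2 fold change -1.15, SE 0.11, adjusted p = 1.2e-05). At each of these 3 genes every Rap library lay under every control. The sterol response element TCACNCCAC was found upstream of 1 of the 17 matched genes of the list (5.88%, against 1.22% of matched tested genes).

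Fatty acid synthesis followed the sterol list in direction. Of its 15 genes, 9 fell and 1 rose, with a median of -0.47. Without the marker-linked genes 9 of 13 fell, and with the covariate 5 of 15. Scd2, a stearoyl-CoA desaturase that introduces the first double bond, had 2807, 2716 and 3153 CPM in the controls and 1177, 1231 and 1102 CPM with Rap (log2 fold change -1.31, SE 0.08, adjusted p = 9.2e-07). Fads1, the delta-5 desaturase of polyunsaturated fatty acids, had 546, 488 and 574 CPM in the controls and 303, 290.0 and 289 CPM with Rap (log2 fold change -0.87, SE 0.08, adjusted p = 1.8e-05). Srebf1, which encodes the SREBP1 factor itself, had 401, 485 and 482 CPM in the controls and 277, 269 and 279.7 CPM with Rap (log2 fold change -0.73, SE 0.10, adjusted p = 1.5e-04). The controls stood above the Rap libraries at all 3. Scd1 fell by 1.91 on the log2 scale (SE 0.25, adjusted p = 1.3e-04), but it is marker-linked and did not pass with the covariate (adjusted p = 0.13). Insig2 was the member that rose (log2 fold change 0.25, SE 0.08, adjusted p = 0.019), with an adjusted p of 0.015 to 0.071 when 1 library was left out, above 0.05 without library control 3 or Rap 2. It did not pass with upper-quartile scaling (adjusted p = 0.066), no filter on low counts (0.058), the 6 compared libraries alone (0.11), without marker-linked genes (0.18) or with the covariate (0.99).

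Genes for protein folding in the ER were higher with Rap. Of 31 folding, ER-associated degradation and unfolded protein response genes, 21 rose and none fell, with a median of 0.40. No member is marker-linked, but the counts depended on the fit. In the one without marker-linked genes, 17 rose and 4 fell, with the median at 0.27 after the changed scaling. With the covariate 4 rose and none fell. Derl3, a derlin that moves misfolded proteins out of the ER, had 5.105, 7.62 and 6.36 CPM in the controls and 35.4, 38.01 and 42.6 CPM with Rap (log2 fold change 2.61, SE 0.15, adjusted p = 3.6e-07). Ern1, which encodes the IRE1 alpha sensor, had 131, 101 and 154 CPM in the controls and 367, 391 and 363 CPM with Rap (log2 fold change 1.54, SE 0.13, adjusted p = 6.7e-06). Dnajb9, an ER co-chaperone, had 196, 174 and 148 CPM in the controls and 395, 409 and 411 CPM with Rap (log2 fold change 1.23, SE 0.11, adjusted p = 1.0e-05). Pdia4, a protein disulphide isomerase, had 347, 331 and 327 CPM in the controls and 579, 595 and 573 CPM with Rap (log2 fold change 0.80, SE 0.07, adjusted p = 6.8e-06). These 4 genes passed with the covariate as well, and none of their groups overlapped.

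The ER stress response element, CCAAT and CCACG with 9 bases of any kind between them, was searched on both strands of the same 250-base windows. It was found for 9 of the 26 matched ER genes, of which 8 had risen and none had fallen. The share was 34.6% of the list's matched genes against 0.149% of matched tested genes. By window it was 33.3% of the list's windows against 0.113% of all windows. Windows of 2 of these genes are shown with the element in capitals, Derl3 as the leading gene of the list and Hspa5, the main ER chaperone BiP, as an example chosen for its element after its values were seen. Hspa5 had 2410.3, 2084 and 2035 CPM in the controls and 3085, 3113 and 3160.3 CPM with Rap (log2 fold change 0.52, SE 0.08, adjusted p = 4.7e-04), and it did not pass with the covariate (adjusted p = 0.39).
Derl3, chr10:75893148-75893397, + strand: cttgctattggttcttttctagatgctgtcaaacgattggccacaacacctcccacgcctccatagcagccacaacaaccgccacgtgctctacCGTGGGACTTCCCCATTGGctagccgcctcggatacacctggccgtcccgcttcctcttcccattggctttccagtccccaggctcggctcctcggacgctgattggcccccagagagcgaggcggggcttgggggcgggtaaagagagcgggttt
Hspa5, chr2:34771840-34772089, + strand: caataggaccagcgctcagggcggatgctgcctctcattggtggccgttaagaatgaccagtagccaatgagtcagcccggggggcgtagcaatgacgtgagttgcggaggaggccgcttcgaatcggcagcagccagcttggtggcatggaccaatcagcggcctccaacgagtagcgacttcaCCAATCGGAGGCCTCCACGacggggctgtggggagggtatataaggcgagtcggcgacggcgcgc

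The hormone and granule genes of the beta cell moved in both directions. Of 17 genes for insulin, amylin and prohormone processing, 8 rose and 3 fell, with a median of 0.39; the median was -0.07 with the covariate, where 3 rose and 1 fell. The fit without marker-linked genes called 7 higher and 4 lower. Ins1 had 3452, 4306 and 2957 CPM in the controls and 2493, 2269.8 and 2416 CPM with Rap and fell (log2 fold change -0.58, SE 0.12, adjusted p = 0.0023). Ins2, the more abundant insulin gene, had 25001, 32754 and 21926 CPM in the controls and 22154, 20046 and 21690.5 CPM with Rap. Its groups overlapped, the highest Rap library standing just above the lowest control, and its adjusted p was 0.047 (log2 fold change -0.32, SE 0.12), or 0.008 to 0.21 when 1 library was left out, above 0.05 without library control 1, control 2, re-added 2, re-added 3, Rap 1, Rap 2 or Rap 3. With the covariate neither insulin gene passed (adjusted p = 0.14 and 0.41). Reads of these near-identical genes may be split between them by the counting.

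The third gene that fell was Slc30a8, the zinc transporter of the insulin granule, with 413, 284 and 344 CPM in the controls and 100.5, 96.8 and 99.9 CPM with Rap (log2 fold change -1.81, SE 0.13, adjusted p = 1.6e-06; covariate estimate -2.27). Among the genes that rose, Pam, which amidates peptide hormones, had 681, 581 and 634 CPM in the controls and 1315, 1379.7 and 1339 CPM with Rap (log2 fold change 1.09, SE 0.08, adjusted p = 2.4e-06). Chgb, the granule protein chromogranin B, had 5455, 6699.6 and 6341 CPM in the controls and 13984, 11831 and 11640.4 CPM with Rap (log2 fold change 1.02, SE 0.10, adjusted p = 1.7e-05). Scg3, secretogranin III, had 1489, 1519 and 1583 CPM in the controls and 3027, 2781 and 2622 CPM with Rap (log2 fold change 0.88, SE 0.08, adjusted p = 1.3e-05). The 3 Rap libraries lay above all controls at these 3 genes, and each passed with the covariate.

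Of 22 transcription factors and other identity genes of the beta cell, 8 rose and 6 fell, against 27.7% and 25.3% of all genes, while 7 of 20 rose and 6 fell without the marker-linked genes, and 1 rose and 3 fell with the covariate. Pdx1 (chromosome 5, 147269959 to 147275848), the master factor of pancreas and beta cells, had 621, 606 and 655 CPM in the controls and 504, 505 and 505 CPM with Rap and fell (log2 fold change -0.31, SE 0.07, adjusted p = 0.0047; covariate estimate -0.61, adjusted p = 0.011). The long noncoding gene Plut lies on its other strand. Mafa, which activates the insulin promoter, had 306, 437 and 459.5 CPM in the controls and 309, 245 and 243 CPM with Rap. One Rap library lay inside the range of the controls, and the gene did not pass (log2 fold change -0.59, SE 0.28, 95% interval -1.21 to 0.03, adjusted p = 0.097). With the same sign it passed with no filter on low counts (adjusted p = 0.043), with the 6 compared libraries alone (0.0029), without marker-linked genes (0.025), and without library starved 1 (0.042) or starved 3 (0.011), and over all alternatives its adjusted p ran from 0.0029 to 0.26. Glis3 (1.71), Hnf4a (1.02), Isl1 (0.56) and Foxa2 (0.42) were the 4 risen genes with the smallest adjusted p, of which Glis3 passed with the covariate. Glis3 had 20.2, 13.4 and 25.01 CPM in the controls and 65.1, 69.6 and 57.9 CPM with Rap. Among those that fell beside Pdx1 were Mnx1 (-0.59), Pax6 (-0.25) and Ucn3 (-1.24), in log2 fold change. The Ucn3 levels were low, between 0.434 and 1.46 CPM.

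Among 24 genes for glucose sensing and secretion channels, 8 rose and 6 fell, and the list median, 0.01, was -0.05 with DESeq2-type and -0.08 with upper-quartile scaling; 5 of 19 rose and 5 fell without the marker-linked genes, and none rose and 3 fell with the covariate. G6pc2, the islet glucose-6-phosphatase that opposes glucokinase, had 3093, 3068 and 2889 CPM in the controls and 1139, 1124 and 1116 CPM with Rap (log2 fold change -1.42, SE 0.08, adjusted p = 2.6e-07). Trpm5, a calcium-activated cation channel, had 108, 127 and 99.7 CPM in the controls and 32.6, 31.4 and 30.1 CPM with Rap (log2 fold change -1.83, SE 0.11, adjusted p = 6.3e-07). Slc2a2, the beta-cell glucose transporter GLUT2, had only 10.3, 8.98 and 8.87 CPM in the controls and 2.602, 2.15 and 1.88 CPM with Rap (log2 fold change -2.09, SE 0.22, adjusted p = 2.7e-05). These 3 falls kept their direction and passed with the covariate. The somatostatin receptor gene Sstr3 rose (0.81, adjusted p = 4.4e-05). Of 28 exocytosis genes 11 rose and 9 fell, a balance that turned in the further fits, where 6 of 23 rose and 9 fell without the marker-linked genes, and 1 rose and 5 fell with the covariate; with upper-quartile scaling 9 rose and 11 fell. The calcium sensor gene Syt5 had 30.6, 37.3 and 31.1 CPM in the controls and 66.02, 68.5 and 69.6 CPM with Rap (log2 fold change 1.05, SE 0.09, adjusted p = 5.6e-06), and Cplx2, which clamps SNARE complexes, had 310.1, 322 and 342 CPM in the controls and 525, 496 and 479 CPM with Rap (log2 fold change 0.62, SE 0.08, adjusted p = 9.6e-05). Rph3al, the granule Rab effector Noc2, had 154, 155 and 160.3 CPM in the controls and 76.2, 76.4 and 78.9 CPM with Rap (log2 fold change -1.02, SE 0.07, adjusted p = 1.6e-06). The syntaxin gene Stx3 fell too (-0.86, adjusted p = 2.0e-04).

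Genes that beta cells normally keep low fell, 14 of 18 with none higher, but 15 of the 18 are marker-linked, 2 of the other 3 fell in the fit without those, and with the covariate Ldha and Slc16a1 (-0.70), named after their values were seen, passed. Interferon and MHC class I genes gave 19 lower and 1 higher of 21, all 21 are marker-linked, and 1 passed with the covariate, Rsad2 (covariate estimate -1.42, adjusted p = 0.0011). 

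More genes of the ATF4 response to amino acid shortage fell than rose. Of 42 ATF4 and amino acid response genes, 18 fell and 7 rose, with a median of -0.17; without the marker-linked genes 17 of 32 fell and 5 rose, and with the covariate 10 fell and 1 rose. Pycr1, which makes proline, had 31.5, 32.8 and 33.4 CPM in the controls and 20.3, 21.8 and 19.9 CPM with Rap (log2 fold change -0.65, SE 0.08, adjusted p = 1.2e-04). Eif4ebp1, the translation repressor 4E-BP1, had 28.7, 36.3 and 28.6 CPM in the controls and 19.5, 18.04 and 18.2 CPM with Rap (log2 fold change -0.75, SE 0.10, adjusted p = 1.3e-04), while the stress gene Nupr1 had 20.2, 24.01 and 19.996 CPM in the controls and 8.62, 6.79 and 7.05 CPM with Rap (log2 fold change -1.51, SE 0.15, adjusted p = 2.3e-05). Both are marker-linked, and both passed with the covariate. Ppp1r15a, the phosphatase subunit GADD34 that reverses eIF2 alpha phosphorylation, rose from a control mean of 26.9 ± 1.15 CPM to 43.3 ± 1.05 CPM (SD, n = 3 each; log2 fold change 0.69, SE 0.07, adjusted p = 2.7e-05). The other members that rose were Slc7a3 (0.75), Ddit3 (0.51), Sesn2 (0.49), Slc7a1 (0.45) and Wars (0.38), in log2 fold change, and 1 more whose call did not outlast leaving out single libraries.

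Among the 20 cytosolic aminoacyl-tRNA synthetases, which charge tRNAs and many of which ATF4 induces, 7 fell and 2 rose. The fit without marker-linked genes called 9 of 19 lower and none higher, and the covariate fit 4 lower and none higher. Yars had 111, 118 and 116 CPM in the controls and 79.3, 77.01 and 77.1 CPM with Rap (log2 fold change -0.56, SE 0.07, adjusted p = 6.5e-05). Farsb (-0.53) and Cars (-0.52) fell likewise in log2 fold change, and Wars had the reverse sign, 0.38. In the list of serine, one-carbon and polyamine synthesis, 11 of 17 fell and 2 rose, and 1 of 15 rose and 11 fell without the marker-linked genes, and 1 rose and 6 fell with the covariate. Tyms, thymidylate synthase, had 125, 121 and 103 CPM in the controls and 59.5, 60.7 and 59.1 CPM with Rap (log2 fold change -0.96, SE 0.10, adjusted p = 2.1e-05). Shmt1 (-0.67), the cytosolic serine hydroxymethyltransferase, fell less. Odc1, the rate-limiting enzyme of polyamine synthesis, went the other way with 357, 337 and 293 CPM in the controls and 777, 778 and 792 CPM with Rap (log2 fold change 1.25, SE 0.09, adjusted p = 2.0e-06; covariate estimate 0.92), as did Sms (0.38), which makes spermine, is marker-linked and did not pass with the covariate. Amino acid transporters split 9 to 9 of 26, with a median of 0.05 that was -0.01 with DESeq2-type scaling; 8 of 20 rose and 5 fell without the marker-linked genes, and none rose and 2 fell with the covariate. Slc38a10 (0.70), Slc43a2 (0.67) and Slc7a8 (0.65) were among the higher and Slc38a2 (-0.56) and Slc7a2 (-0.82) among the lower, and of these 5 Slc38a2 passed with the covariate.

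Lysosome genes were higher more often than lower. Of 38 lysosome genes known as TFEB targets, 21 rose and 4 fell, with a median of 0.24. Without the marker-linked genes 14 of 34 rose and 8 fell, and with the covariate 2 rose and 1 fell, so most of these calls were lost there. Gaa, the lysosomal alpha-glucosidase, had 597, 668 and 775 CPM in the controls and 1431, 1415 and 1343 CPM with Rap (log2 fold change 1.04, SE 0.10, adjusted p = 1.5e-05), and Sgsh, sulphamidase, had 18.2, 19.1 and 20.9 CPM in the controls and 35.8, 37.7 and 33.9 CPM with Rap (log2 fold change 0.88, SE 0.08, adjusted p = 1.1e-05). Both passed with the covariate. Ctsf (0.93) and Tpp1 (0.75), which encode proteases, rose in log2 fold change but did not pass there. The members that fell were Neu1 (-0.48), Atp6v0d1 (-0.34), Atp6v1b2 (-0.22) and Tfeb itself, whose groups overlapped (log2 fold change -0.34, SE 0.12, adjusted p = 0.035). The adjusted p of Tfeb was 0.0083 to 0.15 when 1 library was left out, above 0.05 without library control 2, control 3, Rap 2 or Rap 3. That of Atp6v1b2 was 0.004 to 0.092 when 1 library was left out, above 0.05 without library control 1, Rap 1, Rap 2 or Rap 3. With the covariate Atp6v1b2 was the 1 member that fell (estimate -0.48, adjusted p = 0.035).

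TFEB binds the E-box CACGTG, a palindrome, searched in the same windows. It was found for 13 of the 30 matched lysosome genes, or in 34.2% of the list's windows against 6.02% of all. Of the 13, 8 had risen and none had fallen, beside 21 and 4 of all 38 members. Per gene the share was 43.3%, against 9.35% of matched tested genes. The windows of the 2 genes that rose in both fits are shown with the E-box in capitals. Because CACGTG holds ACGTG, every such window also counts in the hypoxia element search.
Gaa, chr11:119267713-119267962, + strand: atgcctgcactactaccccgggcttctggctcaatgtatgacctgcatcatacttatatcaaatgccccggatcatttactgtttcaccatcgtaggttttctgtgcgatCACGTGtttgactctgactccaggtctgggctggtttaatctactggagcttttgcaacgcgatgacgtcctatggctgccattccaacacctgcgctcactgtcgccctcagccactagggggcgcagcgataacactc
Sgsh, chr11:119355511-119355760, - strand: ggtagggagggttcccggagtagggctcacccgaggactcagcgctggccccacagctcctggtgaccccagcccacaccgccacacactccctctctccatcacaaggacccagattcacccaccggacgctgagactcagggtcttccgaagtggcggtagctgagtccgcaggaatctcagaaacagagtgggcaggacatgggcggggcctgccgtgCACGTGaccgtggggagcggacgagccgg

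Of 38 autophagy genes, 14 rose and 5 fell, while 11 of 33 rose and 8 fell without the marker-linked genes, and 2 rose and 1 fell with the covariate. Wipi1, which binds the phosphoinositide of the forming autophagosome, had 328, 307 and 371 CPM in the controls and 782, 781 and 727 CPM with Rap (log2 fold change 1.19, SE 0.09, adjusted p = 4.5e-06). Atg13, a subunit of the ULK1 kinase complex that mTORC1 inhibits, had 79.95, 76.1 and 91.9 CPM in the controls and 163, 164 and 163 CPM with Rap (log2 fold change 0.98, SE 0.08, adjusted p = 4.5e-06). The groups did not overlap at either, and these 2 were the members that rose in the covariate fit, which put Uvrag lower (-0.82). The E-box stood upstream of 3 of the 31 matched autophagy genes (9.68%, close to the 9.35% of matched tested genes). Atg14 (0.75) and Wipi2 (0.47) rose in log2 fold change without passing there. The list median was 0.14, but -0.07 with the covariate. Of 40 genes of the Rag, folliculin and mTORC1 pathway 7 rose and 9 fell, but 14 rose without library control 3, and 14 fell without any 1 of 4 starved or re-added libraries; 6 of 36 rose and 16 fell without the marker-linked genes, and none rose and 5 fell with the covariate. Ddit4, given above, and Sesn3 (-1.01) were among the falls. The GATOR subunit genes Wdr59 (0.84), Nprl3 (0.61) and Mios (0.48), the TORC1 subunit gene Mlst8 (0.35), and Deptor (0.46), Sesn2 (0.49) and Tbc1d7 (0.46) rose in log2 fold change, and none passed with the covariate.

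FoxO factors and insulin receptor signalling oppose each other in most cells. Of 30 FoxO targets and insulin signalling genes 13 rose and 10 fell, and the median, 0.02, was -0.04 with DESeq2-type and -0.07 with upper-quartile scaling; 9 of 20 rose and 8 fell without the marker-linked genes, and 4 rose and 3 fell with the covariate. The FoxO site GTAAACA stood upstream of 2 of the 25 matched genes (8%, against 2.80% of matched tested genes). Irs2, the insulin receptor substrate that FoxO factors induce, had 144, 96.4 and 195 CPM in the controls and 559.7, 559 and 545 CPM with Rap (log2 fold change 1.93, SE 0.20, adjusted p = 2.7e-05). Igf1r, the receptor of insulin-like growth factor, had 60.8, 63.4 and 72.1 CPM in the controls and 187, 207 and 181 CPM with Rap (log2 fold change 1.55, SE 0.10, adjusted p = 7.9e-07). N4bp2l1 had 6.03, 6.27 and 6.36 CPM in the controls and 22.7, 20.96 and 25.8 CPM with Rap (log2 fold change 1.90, SE 0.12, adjusted p = 7.9e-07). Each of the 3 lay wholly above control and passed with the covariate, as did the ubiquitin ligase gene Fbxo32 (1.02), which is marker-linked and was named after its values were seen. Of the members that fell, G6pc2 is given above, and Cited2 (-0.86) and Sesn3 (-1.01) passed with the covariate too. Ypel3 (-0.67), Sod2 (-0.32), Pik3ip1 (-1.60), Klf15 (-2.46) and Pdk4 (-3.80) did not, and the last 3 are marker-linked.

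Of 79 ribosomal protein genes 13 fell, 1 rose and 65 did not pass, and how many were called depended on the fit: none of 48 rose and 24 fell without the marker-linked genes, and none rose and none fell with the covariate. The falls numbered 25 with DESeq2-type and 24 with upper-quartile scaling, 21 with no filter on low counts, 32 with DESeq2, 22 with limma on TPM and 20 with the 6 compared libraries alone. That number also depended on single libraries, being 3 without library control 2, 34 without library control 3, 23 without library starved 2, 22 without library starved 3, 3 without library Rap 1, 3 without library Rap 2. The median was -0.16, but -0.003 without library control 2, where 7 rose and 3 fell. Rpl7a had 891, 1044 and 799 CPM in the controls and 644, 663 and 709 CPM with Rap (log2 fold change -0.44, SE 0.09, adjusted p = 0.0024), Rpl27 fell by 0.34 on the log2 scale, and Rpl3 was the 1 that rose (0.19), with an adjusted p of 0.039 to 0.14 when 1 library was left out, above 0.05 without library control 3, starved 1, starved 2, starved 3, re-added 1, re-added 2, re-added 3, Rap 2 or Rap 3. Of the 79, 31 are marker-linked. Of 45 ribosome biogenesis genes 19 rose and 8 fell, a direction that turned in other fits: without the marker-linked genes 9 rose and 11 fell, and with the covariate none rose and 1 fell, that one being Fbl, the rRNA methyltransferase fibrillarin (log2 fold change -0.57, SE 0.08, adjusted p = 2.3e-04; covariate adjusted p = 0.017). Nop14 (0.48), Mybbp1a (0.51) and Polr1b (0.48) had the smallest adjusted p of those that rose. Of 28 translation factors 7 rose and 5 fell, with a median of 0.08 that was -0.01 with upper-quartile scaling, where 5 rose and 8 fell; 4 of 27 rose and 9 fell without the marker-linked genes, and none rose and 1 fell with the covariate. Eif5a, whose protein carries a polyamine-derived residue, had 731, 837 and 657 CPM in the controls and 459, 468 and 522 CPM with Rap (log2 fold change -0.62, SE 0.09, adjusted p = 2.4e-04), and Eef2 (0.37), Eif3c (0.40) and Eif2b4 (0.32) rose but did not pass with the covariate.

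Heat shock chaperones fell in 7 of 22 and rose in 2, and 1 of 18 rose and 11 fell without the marker-linked genes, and 1 rose and 4 fell with the covariate. Bag3, a co-chaperone of HSP70 in selective autophagy, had 44.8, 48.9 and 47.5 CPM in the controls and 135, 135 and 126 CPM with Rap (log2 fold change 1.49, SE 0.07, adjusted p = 1.2e-07; covariate estimate 1.3001), and Hspa1a also rose (0.43). The cochaperone gene Stip1 (-0.54) and the CCT subunit genes Cct5 (-0.45) and Cct2 (-0.35) fell and passed with the covariate as well. Proteasome genes fell in 20 of 32 and rose in 1, with a median of -0.30. Without the marker-linked genes, of which the list holds none, 28 fell and 1 rose, with the median at -0.44 after the changed scaling. With the covariate 5 fell and none rose. Psma5 had 99.6, 117 and 88.3 CPM in the controls and 65.5, 63.001 and 68.9 CPM with Rap (log2 fold change -0.63, SE 0.09, adjusted p = 2.4e-04), and Psma1 (-0.58), Psmd13 (-0.64) and Psmd6 (-0.48) fell in log2 fold change. The exception was Nfe2l1 (0.40), the factor that induces proteasome genes.

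No cell cycle gene rose. Of 34, 23 fell, with a median of -0.30, and 29 of 32 fell without the marker-linked genes and 16 of 34 with the covariate. The CCAAT box stood upstream of 20 of the 26 matched genes, 13 of which had fallen, or in 75.9% of the list's windows against 33.8% of all. Per gene the share was 76.9%, against 39.8% of matched tested genes. Cdk2, the kinase of the step into S phase, had 44.4, 44.2 and 44.5 CPM in the controls and 24.7, 22.2 and 21.1 CPM with Rap (log2 fold change -0.97, SE 0.09, adjusted p = 1.1e-05). E2f2, a factor of the same step, had 47.4, 52.9 and 49.5 CPM in the controls and 31.1, 31.6 and 30.4 CPM with Rap (log2 fold change -0.69, SE 0.07, adjusted p = 3.8e-05). Aurkb, a mitotic kinase, had 98.5, 101 and 98.01 CPM in the controls and 60.6, 59.6 and 67.9 CPM with Rap (log2 fold change -0.66, SE 0.08, adjusted p = 6.0e-05), while the cyclin gene Ccne1 fell by 0.60 on the log2 scale (adjusted p = 6.9e-05). At these 4 genes the Rap libraries lay below the controls without overlap. Of 20 p53 targets 8 rose and 3 fell, and 7 of 13 rose and 2 fell without the marker-linked genes, and none rose and none fell with the covariate, with Cdkn1a, the cell cycle inhibitor p21, at 160.4, 186 and 162 CPM in the controls and 278, 274 and 279 CPM with Rap (log2 fold change 0.71, SE 0.08, adjusted p = 4.6e-05). Ccng1 (0.71) and Zmat3 (0.60) rose as well. Large T antigen, which the line carries, binds p53.

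Immediate early genes were more often higher. Of 29, 16 rose and 4 fell, with a median of 0.30; 9 of 19 rose and 4 fell without the marker-linked genes, and with the covariate 5 rose and none fell, the fifth being Klf2 (-0.64 without and 1.88 with it, named after its values were seen). Nr4a1, an orphan nuclear receptor, had 75.2, 87.7 and 87.6 CPM in the controls and 203, 189 and 198 CPM with Rap (log2 fold change 1.24, SE 0.08, adjusted p = 9.2e-07), and its relative Nr4a2 had 10.1, 12.4 and 11.3 CPM in the controls and 37.8, 33.4 and 32.002 CPM with Rap (log2 fold change 1.61, SE 0.11, adjusted p = 1.6e-06). Fosb, an AP-1 subunit, had 5.105, 4.87 and 4.91 CPM in the controls and 17.3, 20.4 and 19.3 CPM with Rap (log2 fold change 1.94, SE 0.14, adjusted p = 2.1e-06). Dusp6, the phosphatase that ERK signalling induces against itself, had 36.6, 38.6 and 37.5 CPM in the controls and 90.6, 86.2 and 89.6 CPM with Rap (log2 fold change 1.24, SE 0.06, adjusted p = 1.7e-07); it is marker-linked, yet it passed with the covariate, as the other 3 did. Of the 4 members that fell, Klf6 (-0.77) was the 1 whose call outlasted leaving out single libraries. Of 19 clock genes 9 fell and 2 rose, and 1 of 13 rose and 8 fell without the marker-linked genes, and none rose and 6 fell with the covariate. Besides Bhlhe40, the output genes Ciart (-1.78), Tef (-1.16) and Dbp (-0.96) fell and passed with the covariate, and Per1 (0.62) and Arntl (0.67), in log2 fold change, rose but did not pass there (adjusted p = 0.13 and 0.12). Ciart and Arntl are marker-linked.

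Mitochondrial transcripts split by genome. Of 13 genes of the mitochondrial genome 9 rose and none fell (1 of 4 rose and none fell without the marker-linked genes, and none rose and none fell with the covariate), with a median of 0.81. Of those that rose, 7 are marker-linked, and the Rap libraries differed widely among themselves: mt-Nd5, a complex I subunit, had 681, 604 and 934 CPM in the controls and 1316, 2351 and 1985 CPM with Rap (log2 fold change 1.35, SE 0.21, adjusted p = 4.4e-04). Reads of mt-Nd5 and of mt-Nd6 on the other strand cannot be told apart if strand was not used. Of 39 respiratory chain genes in the nucleus 16 fell and 1 rose, with a median of -0.21; 28 of 38 fell and 1 rose without the marker-linked genes, and 2, Sdhd and Cyc1, fell and none rose with the covariate. The number of falls depended on single libraries, being 8 without library control 2, 7 without library Rap 1, 7 without library Rap 2. Sdhd, the membrane anchor of complex II, had 171, 169 and 138 CPM in the controls and 92.8, 97.8 and 103 CPM with Rap (log2 fold change -0.70, SE 0.09, adjusted p = 1.6e-04), and Ndufb8 (-0.65) and Cyc1 (-0.48) fell. Sdha, the catalytic subunit of the same complex, rose instead, with 265, 263 and 323 CPM in the controls and 491, 499 and 462 CPM with Rap (log2 fold change 0.77, SE 0.09, adjusted p = 5.1e-05). In the citrate cycle and pyruvate list 7 of 21 fell and 2 rose, and 1 of 21 rose and 10 fell without the marker-linked genes, and none rose and 3 fell with the covariate. Idh2, the mitochondrial isocitrate dehydrogenase that makes NADPH, had 247, 271 and 241 CPM in the controls and 134, 129 and 132 CPM with Rap (log2 fold change -0.94, SE 0.08, adjusted p = 4.7e-06), and Cs (-0.47) and Mpc1 (-0.66) fell while Suclg2 (0.49) rose.

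Activin and TGF-beta genes split 7 to 9 of 27, but the 4 with the smallest adjusted p all rose; 5 of 14 rose and 3 fell without the marker-linked genes, and 4 rose and none fell with the covariate. Inhba, the subunit of activin A, had 8.06, 9.73 and 9.35 CPM in the controls and 25.04, 29.4 and 25.5 CPM with Rap (log2 fold change 1.56, SE 0.10, adjusted p = 8.3e-07). Bambi, a decoy receptor, had 49.7, 58.99 and 44.4 CPM in the controls and 126, 119 and 134 CPM with Rap (log2 fold change 1.305, SE 0.11, adjusted p = 5.5e-06), and Id1, an inhibitor of basic helix-loop-helix factors, had 19.3, 29.4 and 20.96 CPM in the controls and 49.4, 47.2 and 47.6 CPM with Rap (log2 fold change 1.05, SE 0.13, adjusted p = 9.0e-05). Tgfb1 rose by less (0.87, adjusted p = 3.0e-05). These 4 were the ones that passed with the covariate. Nucleotide synthesis and pentose phosphate genes split 7 up and 11 down of 27 (6 of 25 rose and 13 fell without the marker-linked genes, and none rose and 5 fell with the covariate), led by the falls of Tyms, above, and of Taldo1 (-0.72) and the rises of Adssl1 (0.84) and G6pdx (0.42). In the glutathione list 6 of 20 rose and 7 fell, while 2 of 13 rose and 3 fell without the marker-linked genes, and 1 rose and 2 fell with the covariate. In the iron list 2 of 11 rose and 4 fell, while 2 of 8 rose and 1 fell without the marker-linked genes, and none rose and 1 fell with the covariate. Hmox1, heme oxygenase, on both of those, fell (log2 fold change -1.28, SE 0.12, adjusted p = 1.4e-05) and is marker-linked, and Meltf, melanotransferrin, fell in the iron list (-0.99).

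The largest rise among genes that also passed with the covariate and are not marker-linked was that of Ntsr1, the neurotensin receptor. It had 0.154, 0.0541 and 0.0482 CPM in the controls and 6.45, 6.29 and 7.002 CPM with Rap, so that it was near the counting limit in the controls (log2 fold change 6.10, SE 0.33, adjusted p = 3.0e-07). Il4i1, an amino acid oxidase, had 0.154, 0.487 and 0.53002 CPM in the controls and 6.12, 5.63 and 5.92 CPM with Rap (log2 fold change 3.93, SE 0.36, adjusted p = 1.1e-05), and its span overlaps Nup62 on one strand and Atf5 and Tbc1d17 on the other, so reads may be shared. The betaine and GABA transporter gene Slc6a12 had 2.19, 2.595 and 1.98 CPM in the controls and 14.96, 16.1 and 15.98 CPM with Rap (log2 fold change 2.80, SE 0.14, adjusted p = 1.7e-07). Next came, in log2 fold change, the transporter gene Slc4a11 (2.70), Derl3, the imprinted Mest (2.39), the Golgi mannosidase gene Man1a (2.37) and the channel subunit gene Abcc9 (2.35). Man1a was the one at a substantial control level, with 108, 96.3 and 120.2 CPM in the controls and 545, 581 and 554 CPM with Rap. With no condition on the markers, Appbp2os joined the 5 largest rises (3.33), an antisense gene whose reads cannot be told from those of Appbp2.

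On the other side, the largest fall under the same conditions was that of Cox6a2, a muscle-type subunit of cytochrome oxidase, with 11.7, 17.6 and 12.1 CPM in the controls and 1.19, 1.16 and 1.55 CPM with Rap (log2 fold change -3.40, SE 0.35, adjusted p = 2.7e-05). The calcium sensor gene Rcvrn (-2.58), Ldha, Ak4, the matrix gene Hapln1 (-2.40), Slc16a3, the protease gene Prss53 (-2.36) and the zinc and manganese importer gene Slc39a8 (-2.21) followed, in log2 fold change. Rcvrn rested on low and scattered values, 6.26, 8.71 and 2.22 CPM in the controls and 1.95, 0.497 and 0.423 CPM with Rap. Slc39a8 was precise, with 238, 199 and 232 CPM in the controls and 48.8, 48.7 and 47.5 CPM with Rap (log2 fold change -2.21, SE 0.07, adjusted p = 6.9e-09), and so was Prss53, with 245, 244 and 220.3 CPM in the controls and 44.7, 44.4 and 48.8 CPM with Rap. Without any condition on the markers the 5 largest falls were those of Tgtp1, Chil3, Ly6c1, Mndal and H2-M2, genes of leukocytes, endothelium or the interferon response. All 5 are marker-linked, between 84% and 110% of their control level moved with the markers within groups, and none passed with the covariate. Their fitted fold changes rest on Rap libraries near 0 and depend on the prior count, so they are not given as sizes.

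Rap was also compared with re-addition alone, whose libraries had the same 3 h of amino acids. This test shares the Rap libraries with the comparison above, and the differences of both re-added and Rap from control share the control libraries, so values are set side by side and no overlap is counted. Rap and re-addition alone differed at 1344 genes (7.98%), 766 higher with Rap (4.55%) and 578 lower (3.43%), over a median of 0.00. The count was 635 without library re-added 3 and 2058 without library control 2. More genes were lower than higher under other settings: 565 were higher and 1381 lower with limma on TPM, 589 and 696 with no filter on low counts, 1081 and 1109 with DESeq2, and 852 and 854 with the covariate. The same held without library starved 1 (732 and 859), starved 2 (742 and 850), starved 3 (682 and 779) or re-added 1 (509 and 535), so the balance of directions is not a stable result. Among the re-added libraries the first held more other-cell transcript than the others (marker sum 839 CPM against 119 and 118), and the 3 Rap libraries held 108 to 114 CPM.

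Glycolysis genes were lower with Rap than with re-addition alone, 10 of 24 with none higher, by a median of -0.27. Ldha averaged 2691 ± 285 CPM in control cells, 205 ± 0.942 CPM in starved cells, 628 ± 19.4 CPM after re-addition and 479.9 ± 17.8 CPM with Rap (SD, n = 3 each). Rap and re-addition alone differed (log2 fold change -0.39, SE 0.08, adjusted p = 0.0093), by a step that was small beside the distance of either from control. Sterol genes were lower with Rap in 13 of 25 and fatty acid genes in 6 of 15, none higher in either. Scd2 had 2009, 2088 and 2271 CPM without Rap and 1177, 1231 and 1102 CPM with it (log2 fold change -0.86, SE 0.08, adjusted p = 1.0e-04). Lss, lanosterol synthase, had 59.97, 56.6 and 66.1 CPM without Rap and 32.9, 33.7 and 33.9 CPM with it (log2 fold change -0.86, SE 0.09, adjusted p = 1.7e-04), and its control libraries held 57.2, 49.7 and 61.3 CPM. The re-added libraries of Lss thus lay in or near the range of the controls, and the Rap libraries lay below both. Elovl6, a fatty acid elongase gene, and Adm2, a peptide hormone gene, were also among the 6 largest falls of genes also called against control (-0.81 and -0.89 against re-addition alone, -0.76 and -1.32 against control).

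ATF4 and amino acid response genes were lower with Rap than without in 21 of 42 and higher in none, and tRNA synthetases lower in 17 of 20 and higher in 1, Qars. Ribosome biogenesis genes were lower in 31 of 45 and higher in 1, Nop10 (0.33), with a median of -0.48, and heat shock chaperones lower in 14 of 22 and higher in 1, Bag3 (0.26). Serine, one-carbon and polyamine genes were lower in 9 of 17, translation factors in 10 of 28 with 1 higher, and proteasome genes in 9 of 32. Ribosomal protein genes had the reverse sign, 11 of 79 higher and none lower. The ribosome biogenesis list thus stood below re-addition alone, while against control 19 of its members had risen and 8 had fallen. The direction against control turned in the further fits. There 9 rose and 11 fell without the marker-linked genes, and none rose and 1 fell with the covariate. Among the members, Mybbp1a had 118 ± 15.95 CPM in control, 247 ± 3.88 CPM after re-addition and 168 ± 4.502 CPM with Rap (SD, n = 3 each).

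FoxO targets and insulin signalling genes were higher with Rap than without in 14 of 30 and lower in none, autophagy genes higher in 12 of 38 and lower in 1, and activin and TGF-beta genes higher in 9 of 27 and lower in none. Hbp1, a transcriptional repressor and FoxO target, had 33.2, 31.4 and 29.6 CPM without Rap and 96.8, 95.9 and 96.4 CPM with it (log2 fold change 1.62, SE 0.09, adjusted p = 2.2e-06), while its controls stood between, at 55.96, 52.5 and 54.9 CPM. Dyrk1b, a quiescence-associated kinase gene, had 21.2, 18.96 and 21.2 CPM without Rap and 58.2, 60.5 and 55.2 CPM with it (log2 fold change 1.504, SE 0.12, adjusted p = 3.1e-05). N4bp2l1 had 9.48, 7.38 and 8.01 CPM without Rap and 22.7, 20.96 and 25.8 CPM with it (log2 fold change 1.48, SE 0.12, adjusted p = 1.9e-05). Bckdha, a subunit of the enzyme that degrades branched-chain amino acids, had 18.5, 17.9 and 18.5 CPM without Rap and 50.4, 49.2 and 50.3 CPM with it (log2 fold change 1.45, SE 0.09, adjusted p = 3.9e-06); its starved mean, 50.5 ± 6.51 CPM (SD, n = 3), was close to that with Rap. Atg13 had 76.2, 73.6 and 74.1 CPM without Rap and 163, 164 and 163 CPM with it (log2 fold change 1.13, SE 0.08, adjusted p = 8.2e-06). At these 5 genes and at Derl3 the Rap libraries lay above every re-added library. Derl3 had 14.8, 12.3 and 12.96 CPM without Rap and 35.4, 38.01 and 42.6 CPM with it (log2 fold change 1.53, SE 0.14, adjusted p = 6.0e-05).

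**Figure D4:**
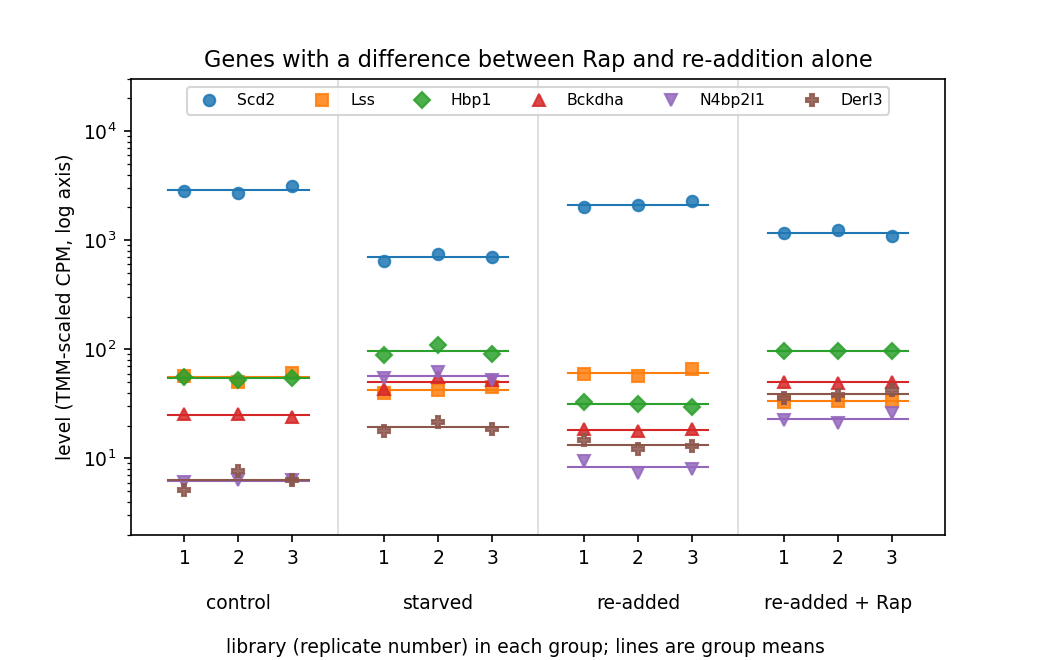
Levels of 6 genes that differed between Rap and re-addition alone in the 12 libraries, in TMM-scaled CPM on a log axis, with a line at each group mean. Scd2 and Lss are lower in the Rap libraries than in the re-added ones, and Hbp1, Bckdha, N4bp2l1 and Derl3 are higher.

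Lysosome genes were higher with Rap in 1 of 38, Mitf (0.67), ER genes in 2 of 31, Derl3 and Dnajb9 (0.65), with none lower in either list. Against re-addition alone the direct difference was 0.12 for Gaa (95% interval -0.09 to 0.33), 0.00 for Slc30a8 (-0.27 to 0.27), -0.16 for G6pc2 (-0.32 to 0.00), -0.03 for Odc1 (-0.23 to 0.16) and 0.08 for Pdx1 (-0.08 to 0.25). None of these 5 passed, and their intervals leave room for differences of the sizes they span. Of the lists, cell cycle genes were higher with Rap in 2 of 34, Mcm7 and Ccnb2, and lower in 1, Ccne1 (-0.31). Genes named in this paragraph and the 2 before it to identify a single exception were chosen after their values were seen.

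**Figure D5:**
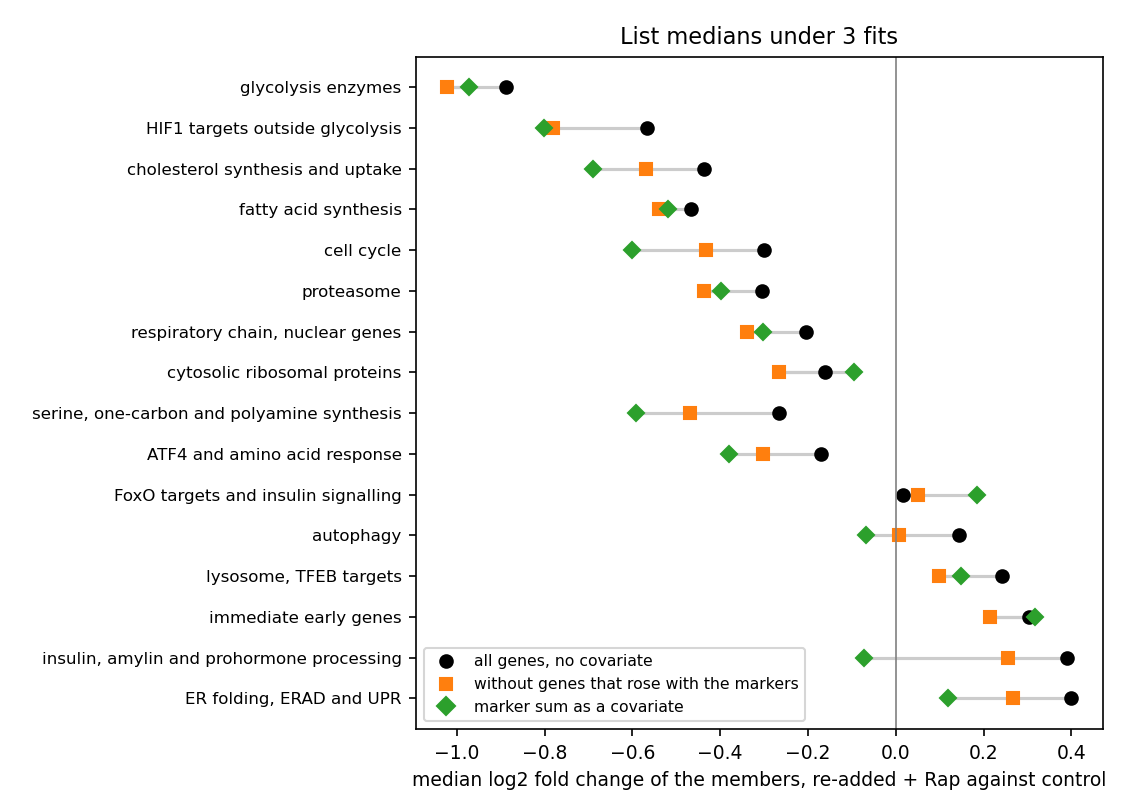
Median log2 fold change with Rap against control of the tested members of 16 gene lists, under the fit of all genes, the fit without marker-linked genes and the fit with the marker sum as a covariate. Glycolysis, HIF1 target, sterol, fatty acid and cell cycle medians are below 0 in all 3 fits. ER, lysosome and immediate early gene medians are above 0 in all 3, and those of the insulin and autophagy lists change sign with the covariate.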

How the data were processed

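The authors deposited 12 tables of raw read counts by Ensembl gene, with exon positions and lengths per the file headers. The submitters' processing notes name the build GRCm38.p6, Subread 2.0.1 and limma 3.46.0 without their roles. For the aligner, strandedness and annotation release nothing is given in the sources used here. The authors also deposited TPM values (counts per exon length on a common total) with gene names, used for names and in 1 alternative, and 0 of its columns were left unassigned. Library totals ran from 18555958 to 25631056 counts.

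Counts were tested with edgeR 4.0.16 in R 4.3.3: filterByExpr (minimum count 10, minimum total 15), TMM scaling, 1 quasi-likelihood fit of all 12 libraries (4 group means, residual degrees of freedom 8), Benjamini-Hochberg adjustment over all 16844 genes kept (99.9% of counts) and a threshold of 0.05. SEs are the log2 fold change over the root of F. CPM of single genes use TMM-scaled library sizes, and marker sums use raw totals. Marker-linked genes and the covariate are defined in the report. Alternatives were other scalings, no filter, DESeq2 1.42.0, limma 3.58.1 on log2(TPM + 1) for genes at 1 TPM or more in at least 3 libraries, the 6 compared libraries alone, a replicate block, each library left out, and an adjusted p of 0.01. The test was checked on simulated counts in which few genes changed and other-cell transcripts did not differ between groups. That check does not cover a comparison in which most genes differ. Replicate numbers did not pair control with Rap libraries.

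Named genes were Pdx1, Ins1, Ins2 and Mafa; among genes at 5 CPM or more with no overlap of libraries, the 8 largest rises and falls that are not marker-linked and also passed with the covariate, and the 5 largest with no such condition; up to 4 genes of smallest adjusted p from each of 35 lists, with members that moved against a list; and the 6 largest rises and falls of Rap against re-addition alone. Not every gene the rule allows is named, and exceptions are stated. Comparison, lists and rule were chosen with earlier results of these data known, and lists share genes. Promoter windows are 250 bases upstream of RefSeq start sites.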

Additional observations from a re-analysis of the deposited data

How the results depend on the processing

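Of the results with Rap against control, the number of calls (8927) moved by over 1.5 times under 1 alternative that was not a filter on genes: with the marker sum as a covariate, 1086 genes were called, 431 higher and 655 lower. Leaving out the marker-linked genes left 5828 calls among 11165 genes, 2970 of them higher. Under other scalings 8941 (DESeq2-type factors, 45.8% higher) and 9076 (upper quartile, 43.8% higher) were called, against 52.3% higher with TMM, since the median of all genes was -0.01 and -0.04 there against 0.05. The number was 8855 with no filter on low counts (44.9% higher), 8943 with DESeq2 (45.8%), 8300 with limma on TPM, 8402 with the 6 compared libraries alone (46.6%), 6062 at an adjusted p of 0.01, and 7380 to 9212 when 1 library was left out. A replicate block gave 8590 calls; same-numbered control and Rap libraries deviated with correlations of -0.05, -0.17 and -0.16, so the numbers share no more than a number. For Rap against re-addition alone, 1344 calls became 2190 with DESeq2 and 572 at an adjusted p of 0.01, and ranged from 635 to 2058 when 1 library was left out. Among the named genes followed through the alternatives, and not all genes tested, 4 had log2 fold changes that reversed with the covariate. They were Epas1 (1.304), Klf2 (1.88), Insig2 (-0.0061) and Ndrg1 (-0.018), and the cause was not tested. The spread between libraries and not counting limits most values, except for genes near 0 such as Ntsr1 in the controls.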
